A study of Mus musculus with 15 samples.

Results

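The subject is the set of genes that encode the subunits of oxidative phosphorylation, measured in mouse liver. A gene was a member if its array symbol began with Nduf (complex I), Uqcr (complex III) or Atp5 (complex V), was Sdha, Sdhb, Sdhc or Sdhd (complex II), or began with Cox4 to Cox8 and a subunit letter (complex IV), so no measured value entered the choice. This gave 89 of the 22032 gene symbols on the array, read by 125 probes: 36 members in complex I, 4 in complex II, 8 in complex III, 20 in complex IV and 16 in complex V. The remaining 5 (Ndufaf1, Ndufaf2, Ndufaf3, Ndufaf4 and Atp5sl) carry a matching symbol but are known as assembly factors or relatives of subunits.

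All animals were male CD1 mice. Group C was injected with saline at 15 days of age and later with empty plasmid. Group T was injected with the hepatocarcinogen diethylnitrosamine (DEN, 25 µg/g) at 15 days and later with empty plasmid. Group G had the same DEN dose, followed by the plasmid pcDNA3/CAG-HAGas1, which carries Gas1, a growth-arrest gene, with an HA tag. Plasmid (50 µg) was pushed into the liver by a rapid large-volume injection into the tail vein, hydrodynamic gene delivery, every week from week 28 to week 34, with sacrifice at week 35 per the study's methods, whereas the sample records give an age of 10 weeks. Liver RNA was hybridised to 15 one-colour Agilent arrays, and since 2 pairs of arrays each came from 1 RNA code, the arrays stand for 13 mice: 3 in C, 4 in T and 6 in G. The mean of each such pair counted as 1 mouse (C3 and T4). The sources used here do not say how much of each piece of liver was tumour. In stained livers of the same study the plasmid reached only part of the cells, mainly those close to vessels, so group G mixes cells with and without it.

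Oxidative phosphorylation is the last step of respiration in mitochondria. Complex I takes electrons from NADH and complex II takes them from succinate, complex III passes them to cytochrome c, complex IV hands them to oxygen, and complex V uses the proton gradient that the pumping complexes build to make ATP. Most subunits are encoded in the nucleus, a few of the central ones in the mitochondrial genome, and some complex IV subunits exist in a liver form and a heart and muscle form. Hepatocytes are rich in mitochondria, and complex II is at the same time an enzyme of the tricarboxylic acid (TCA) cycle.

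Of the 89 members, 82 had a probe above background on all 15 arrays, 5 on some arrays, and Cox7b2 and Cox8c on none. Levels are log2 intensities after quantile normalization, and a level is compared only with the same gene in other mice. Between 15707 and 29765 spots per array were above background. The arrays of C1 and C2 were the dimmest: the brightest percentile of their spots began at a log2 signal of 12.41 and 12.11 before normalization, and at 13.10 to 14.09 on every other array. Gas1 itself averaged 6.53 ± 0.20 (SD, n = 3) in C, 6.53 ± 0.09 (n = 4) in T and 6.61 ± 0.11 (n = 6) in G, and limma gave G minus T = 0.08 with adjusted p = 0.765. The sources used here do not say whether the 3 Gas1 probes lie within the plasmid insert, so these levels do not check the labels of G.

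Compared with C, the livers of group T held less of 3 subunit transcripts in quantile-normalized data, a sign that median scaling of the arrays turned: Sdha and Sdhb, the catalytic pair of complex II, and Ndufa9, an accessory subunit of complex I. They were called by limma at an adjusted p under 0.05 over all 22032 symbols, and all 3 were lower, which is 3.37% of the members. For comparison 2.37% of all symbols were called in either direction and 1.2% were called lower. Among the 8493 genes above background on all arrays the shares were 3.96% and 2.5%, against 3 of 82 such members (3.66%), so the share of members called was near that of other bright genes. In bulk liver, fewer cells of a type and less RNA per cell cannot be told apart. No member was called in G against T or in G against C. The calls rest on few mice, on the scaling of the arrays and, for Sdhb, on how its probes are averaged, as given beside each result.

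The regions upstream of the start sites of these 3 genes are shown because they are the members called, and because motifs of regulators known from respiratory genes could be looked up in them. Each run is the 250 bases before the start, read on the coding strand, from RefSeq on GRCm38.p6. Capitals mark a match on either strand to the ETS-type motif CGGAAG, which GABPA also binds (Ndufa9), to the NRF1 motif GCGCANGCG (Sdha) or to the Sp1 motif GGGCGG (Sdhb).
Ndufa9, chr6:126849145-126849394, minus strand: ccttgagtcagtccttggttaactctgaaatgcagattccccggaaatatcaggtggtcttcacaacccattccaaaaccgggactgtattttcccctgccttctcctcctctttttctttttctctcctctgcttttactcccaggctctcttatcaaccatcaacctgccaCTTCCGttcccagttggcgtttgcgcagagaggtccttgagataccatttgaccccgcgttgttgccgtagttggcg
Sdha, chr13:74350241-74350490, minus strand: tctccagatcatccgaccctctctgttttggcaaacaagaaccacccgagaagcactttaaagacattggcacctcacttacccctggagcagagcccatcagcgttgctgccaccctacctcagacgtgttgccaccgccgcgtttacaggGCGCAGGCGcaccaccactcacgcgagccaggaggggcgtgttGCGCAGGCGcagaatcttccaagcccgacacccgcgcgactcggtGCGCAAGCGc
Sdhb, chr4:140961021-140961270, plus strand: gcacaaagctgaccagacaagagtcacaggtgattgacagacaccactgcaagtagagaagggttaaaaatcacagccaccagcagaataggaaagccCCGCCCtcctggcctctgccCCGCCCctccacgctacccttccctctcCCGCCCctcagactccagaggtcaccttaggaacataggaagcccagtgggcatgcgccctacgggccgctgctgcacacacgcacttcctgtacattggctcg

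The first run has 1 ETS-type match, starting 77 bases before the start site, the second has 3 NRF1 matches, at 98, 55 and 10 bases, and the third has 3 Sp1 matches, at 152, 132 and 104 bases. Over the 74 members with an upstream region in the RefSeq table, 29.7% held CGGAAG against 13.6% of all 32851 regions of the same length, and 18.9% held GCGCANGCG against 5.16%. The Sp1 motif was in 40.5% of member regions and 32.7% of all regions. The estrogen-related receptor motif TCAAGGTCA was in 1.35% of member regions against 0.387%, the TATA motif TATAAA in 8.11% against 12.4%, and the YY1 motif AAGATGGCG in 0 of the 74 against 0.606%. Both strands were searched, and 4 of the 102 matches in member regions shared bases with a match to another of the motifs. The regions of Ndufa9, Sdha and Sdhb hold 50%, 61.6% and 59.2% G and C, and matches to GC-rich letters are expected to be more frequent in GC-rich sequence. The G and C share of the other regions was not compared, and the 32851 regions were not limited to genes above background. The share with an ETS-type match was 33.3% among the 18 regions of members lower in T at an unadjusted p under 0.05 and 30.8% among the 52 regions of the other members above background. A match is a description of letters and not of a bound site.

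Complex II carries electrons from succinate to ubiquinone. Sdha, its flavoprotein, was at 11.45, 11.65 and 11.61 in the 3 mice of C, and at 11.37, 11.10, 11.18 and 11.03 in the 4 mice of T. Its lowest, median and highest levels in G were 11.24, 11.45 and 11.50. Every mouse of T was below every mouse of C, while G overlapped both groups. The group means were 11.57 ± 0.11 (SD, n = 3), 11.17 ± 0.15 (n = 4) and 11.40 ± 0.12 (n = 6), so Sdha fell by 24.3% from C to T (log2 difference -0.40, SE 0.09, limma adjusted p = 0.0456).

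Sdhb, the iron-sulfur subunit that takes the electrons on from Sdha, was at 12.37, 12.44 and 12.49 in C and at 12.07, 11.77, 12.05 and 12.07 in T. In G its lowest, median and highest levels were 12.11, 12.26 and 12.40. No mouse of T reached the lowest mouse of C or of G, and Sdhb was the one member for which G and T did not overlap. Sdhb fell by 26.7% from C to T (-0.45, SE 0.09, adjusted p = 0.0301), and its 2 probes gave -0.55 and -0.37. With a plain mean of the probes, not centred first, T minus C was -0.10 (adjusted p = 0.904) and G minus T was -0.08, and with the brightest probe alone T minus C was -0.37 (adjusted p = 0.0533), so neither kept the call. The membrane anchors of the same complex were nearer to 0: Sdhc was at -0.04 (adjusted p = 0.861) and Sdhd at 0.10 (adjusted p = 0.557) in T minus C.

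Complex I is the largest complex of the chain and the main entry of electrons from NADH. Ndufa9 was at 11.51, 11.68 and 11.29 in C and at 10.99, 10.80, 10.86 and 10.85 in T. In the 5 mice of G in which it was measured, its lowest, median and highest levels were 10.88, 10.95 and 11.38. All of T lay below all of C, and the G mice spread from the level of T up into the range of C. Ndufa9 fell by 34.9% from C to T (-0.62, SE 0.13, adjusted p = 0.0339), which is the most negative difference of the 82 members above background on all arrays.

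These 3 calls depended on single mice and on scaling. Leaving out 1 mouse at a time kept the sign of all 3: Ndufa9 ranged from -0.72 to -0.52 and was called in 8 of 13 such fits, Sdhb from -0.48 to -0.37 with 7 of 13, and Sdha from -0.47 to -0.35 with 2 of 13. The count of called members was 0 without C2, T2, T3 or T4, 1 without C1 or C3, 2 without G1, G2, G4 or G5, 3 without G3 or G6, and 6 without T1. Of all symbols, the 13 fits called from 95 (without T3) to 746 (without T1). Scaling each array to its median in place of quantile normalization turned the sign of all 3, to 0.37 for Ndufa9, 0.60 for Sdha and 0.57 for Sdhb and the median of all genes above background became 0.65. The methods' t-test called 0 of all 22032 symbols after adjustment, so its 0 members say nothing particular to the subunits. Within the arrays of slide 1 alone the differences were -0.61, -0.51 and -0.55, and within slide 2 alone -0.55, -0.40 and -0.36, none of them called. Mice C3 and T4 have an array on each slide, so the slides share mice and are not independent. The slide fits called 46 (slide 1) and 17 (slide 2) of all symbols. With mouse C3 as the only C mouse, a choice made after seeing the data, the differences were -0.41 for Ndufa9, -0.44 for Sdha and -0.51 for Sdhb. With median scaling of these same mice they were -0.30, -0.33 and -0.37, where the median of all members was 0.05. A single C mouse has no spread of its own, so these are values with no test, and the part of array brightness in the differences was not tested.

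**Figure D1:**
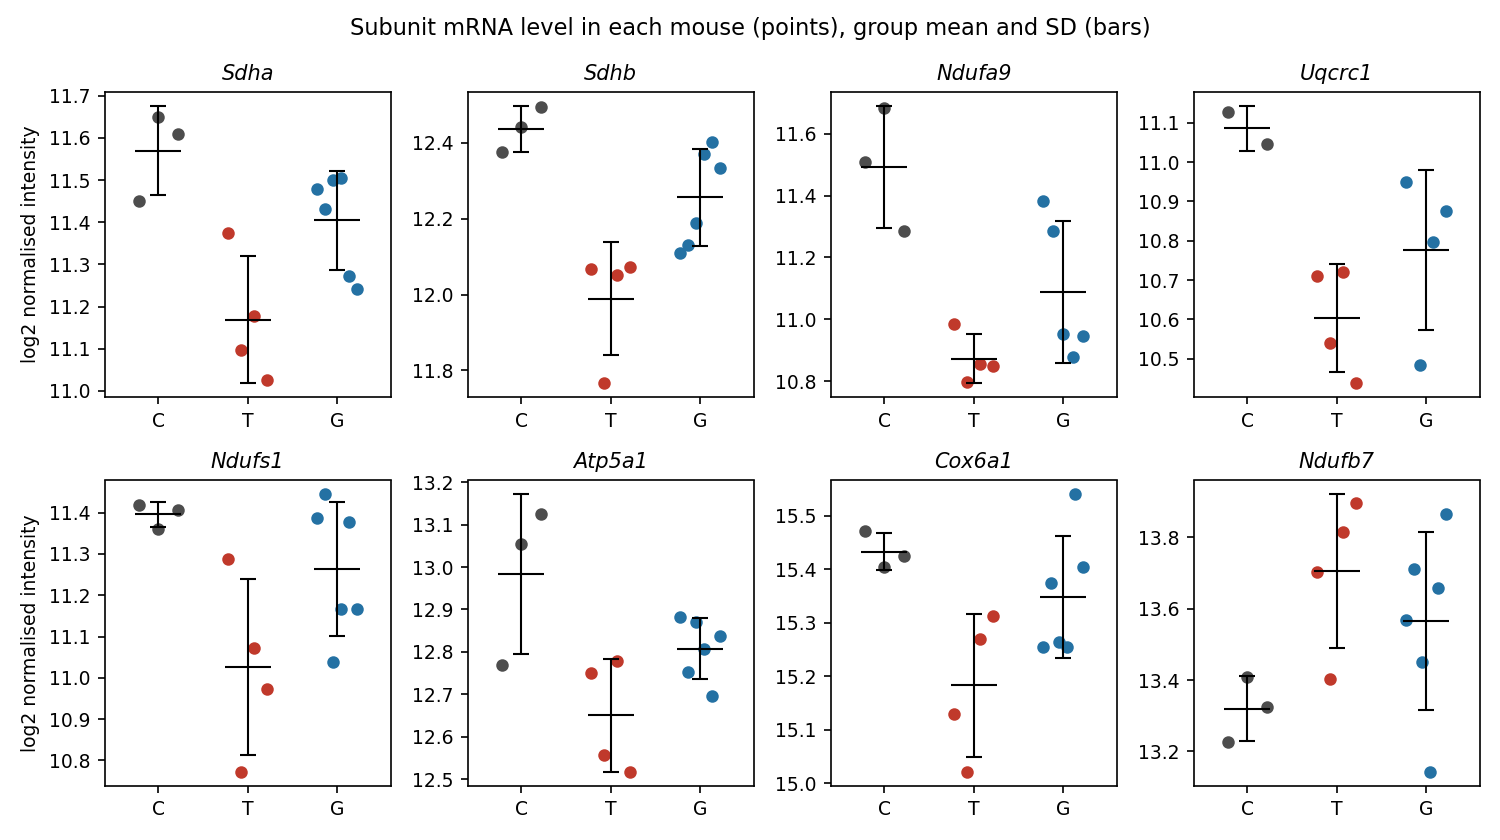
Log2 level (quantile-normalized intensity, vertical axis) of 8 members in each of the 13 mice; points are mice, horizontal lines are group means and vertical bars 1 SD. Sdha, Sdhb, Ndufa9, Uqcrc1, Ndufs1 and Cox6a1 have every T mouse below every C mouse, Atp5a1 overlaps, and Ndufb7 has the opposite sign, in this scaling. Scaling to the array median turns Sdha, Sdhb and Ndufa9 to higher in T.

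Beyond Ndufa9, complex I split within itself. The median T minus C of its 36 members was -0.07, with 26 negative, 9 at an unadjusted p under 0.05 on the lower side and 1 on the higher side, where 9.61% of all symbols and 14% of genes above background were lower by that rule. The 7 core subunits that build the electron path had a median of -0.07 and the 29 accessory subunits -0.06. Ndufs1, a large core subunit that binds several of the iron-sulfur clusters, was at 11.42, 11.36 and 11.41 in C and at 11.29, 10.77, 11.07 and 10.97 in T. Its groups did not overlap, and the difference was -0.37 (SE 0.12, adjusted p = 0.106). The accessory subunit Ndufa10 was at -0.40 (SE 0.11, adjusted p = 0.0687) and the core subunit Ndufs8 at -0.40 (SE 0.13, adjusted p = 0.104), both chosen for mention after their values were seen, as was Ndufs1.

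Ndufb7, an accessory subunit of the membrane arm, went the other way. It was at 13.23, 13.41 and 13.32 in C and at 13.70, 13.40, 13.82 and 13.90 in T. Only T2 lay within the range of C, and the difference of 0.39 (SE 0.15) did not pass the test (adjusted p = 0.179). Its lowest, median and highest levels in G were 13.14, 13.61 and 13.87, which cover both groups. Ndufa7, another accessory subunit, had the highest G minus T of complex I (0.25, adjusted p = 0.439).

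Complex III passes electrons from ubiquinol to cytochrome c. The median T minus C of its 8 members was -0.19, with 7 negative and 4 lower at an unadjusted p under 0.05, against the same 14% of genes above background. Uqcrc1, a large core protein on the matrix side, was at 11.13 and 11.04 in the 2 mice of C with a value and at 10.71, 10.54, 10.72 and 10.44 in T. The groups did not overlap, and the difference was -0.48 (SE 0.13, adjusted p = 0.0796). Its partner Uqcrc2 was at -0.31 (SE 0.10, adjusted p = 0.097), and Uqcrfs1, the Rieske iron-sulfur protein, at -0.38 (SE 0.13, adjusted p = 0.141, named after its value was seen). Uqcrq, a small subunit, was the one positive member at 0.16 (adjusted p = 0.452).

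Complex IV reduces oxygen to water, and its members were mixed. The median T minus C was -0.01 over all 20 members and -0.10 over the 14 above background on every array, of which 3 passed an unadjusted p of 0.05 on the lower side (14% of genes above background did). Cox6a1, the liver form of subunit VIa, was at 15.47, 15.40 and 15.43 in C and at 15.13, 15.02, 15.27 and 15.31 in T. The groups did not overlap, with a difference of -0.25 (SE 0.08, adjusted p = 0.119). Cox6b1, the common form of subunit VIb, was at -0.21 (adjusted p = 0.196), and Cox4i1, the common form of subunit IV, at -0.07 (adjusted p = 0.779).

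The remaining common forms lay near 0 in T minus C: Cox7a2 was at -0.09, Cox8a at -0.12 and Cox7a2l, a supercomplex factor related to subunit VIIa, at 0.06. Cox7b had the lowest value in the complex, -0.55, but its SE was 0.34 (adjusted p = 0.405). Its C mice were at 14.29, 13.37 and 13.18, and its T mice at 13.14, 13.04, 13.21 and 12.88. C3 lay below T3, so the groups overlapped, and C1 stood far above the other 2 C mice. In G the lowest, median and highest were 12.86, 13.07 and 14.39. Ndufa4, now counted with complex IV, was at 0.11, and Ndufa4l2, its relative, at 0.00. The testis or hypoxia forms Cox4i2 and Cox6b2 were above background on 5 and 12 arrays and had differences of 0.08 and 0.13, with no call.

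Complex V makes ATP. The median T minus C of its 16 members was -0.08, with 11 negative and 5 at an unadjusted p under 0.05 on the lower side, again beside 14% of genes above background. Atp5a1, the alpha subunit of the catalytic head, was at 12.77, 13.05 and 13.13 in C and at 12.75, 12.56, 12.78 and 12.52 in T. T3 lay just above C1, so the groups overlapped, and the difference was -0.33 (SE 0.09, adjusted p = 0.0695). Of the 3 genes for the same c subunit of the membrane ring, Atp5g3 was at -0.32 (SE 0.10, adjusted p = 0.105), Atp5g2 at -0.07 and Atp5g1 at 0.04. Atp5s, a coupling factor, was above background on no array of C and on 1 of T. Its means were 6.03 in C and 6.27 in T (limma adjusted p = 0.102). The groups overlapped, and with both near background no bound on the fold is given. Atp5k, a small membrane subunit, was at 0.11, and 2 of its 3 probes are mapped to the Y chromosome.

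The family as a whole sat slightly lower in T than in C in this scaling, with a median of -0.07 over the 89 members against 0.01 over all symbols, but the sign of that median turned under 3 of the other scalings. It was 0.86 with median scaling, 0.15 with median scaling on genes above background and 0.03 with 75th-percentile scaling, in which all genes above background had medians of 0.65, -0.05 and 0.09. Relative to those genes the members were therefore at 0.22, 0.20 and -0.06, and at -0.08 in the main scaling. At an unadjusted p under 0.05, 23 members (25.8%) were lower and 2 higher, against 9.61% of all symbols lower and 10.6% higher. Because members are bright, the nearer comparison is with genes above background on all arrays, of which 14% were lower by that rule, against 23 of 82 members (28%).

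Groups that did not overlap gave a like count in the main scaling. In 20 members (22.5%) every T mouse was below every C mouse, and in 1, the complex I assembly factor Ndufaf4, every T mouse was above, while 8.72% of all symbols lay fully lower and 10.3% fully higher. Among genes above background on all arrays, 11.4% lay fully lower, against 24.4% of the 82 members. These 20 came from each complex, for instance Ndufa6, Ndufb8 and Ndufc2 of complex I, Uqcrb of complex III, Cox6b1 of complex IV and Atp5b and Atp5d of complex V.

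**Figure D2:**
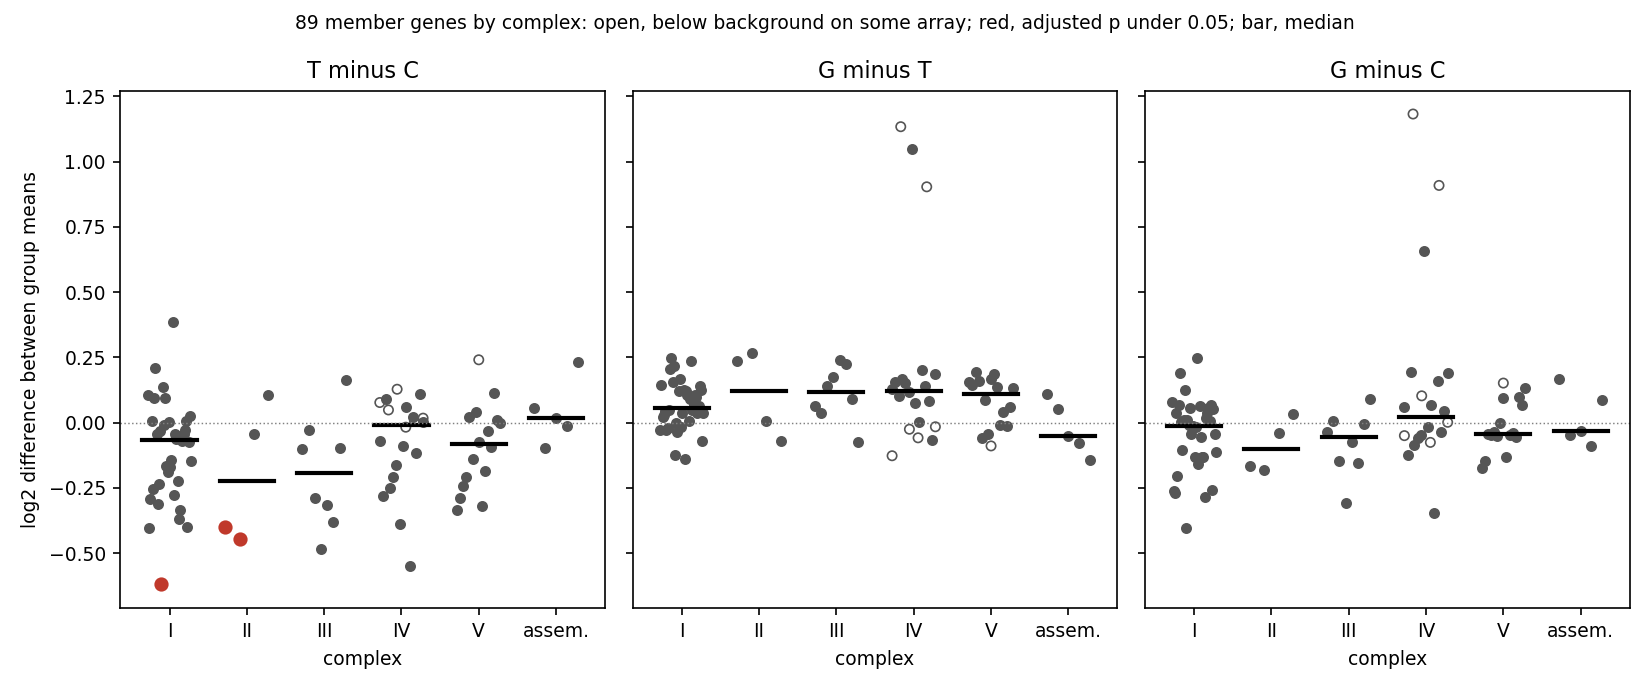
Log2 difference (vertical axis) of each of the 89 members, by complex, for T minus C, G minus T and G minus C; each point is 1 gene, open where it was below background on some array and red where its adjusted p was under 0.05, and bars are medians. In this scaling the T minus C medians of complexes II and III lie lowest and the G minus T medians of complexes I to V lie above 0; with median scaling all 5 T minus C medians turn positive and all 5 G minus T medians turn negative.

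The order of members within the family was similar across scalings, in part by construction. The median scalings differ from each other by a constant per array, so they give the same order in T minus C. The main scaling, normexp offset 16 and the authors' table all use normexp and quantile normalization. Sdhb, Uqcrc1 and Ndufb7 were also named for their values in these same data, so the ranks are a description. Over 7 scalings and relative to the median of the 82 members in each, Ndufa9 was between -0.49 and -0.55 and between the lowest and the 4th lowest of 82 in T minus C. Uqcrc1 was between -0.34 and -0.65, also among the 4 lowest. Sdhb was between -0.31 and -0.38 and Sdha between -0.28 and -0.34, within the 10 lowest. Ndufb7 was the highest of the 82 in all 7 scalings, 0.42 to 0.52 above their median.

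**Figure D3:**
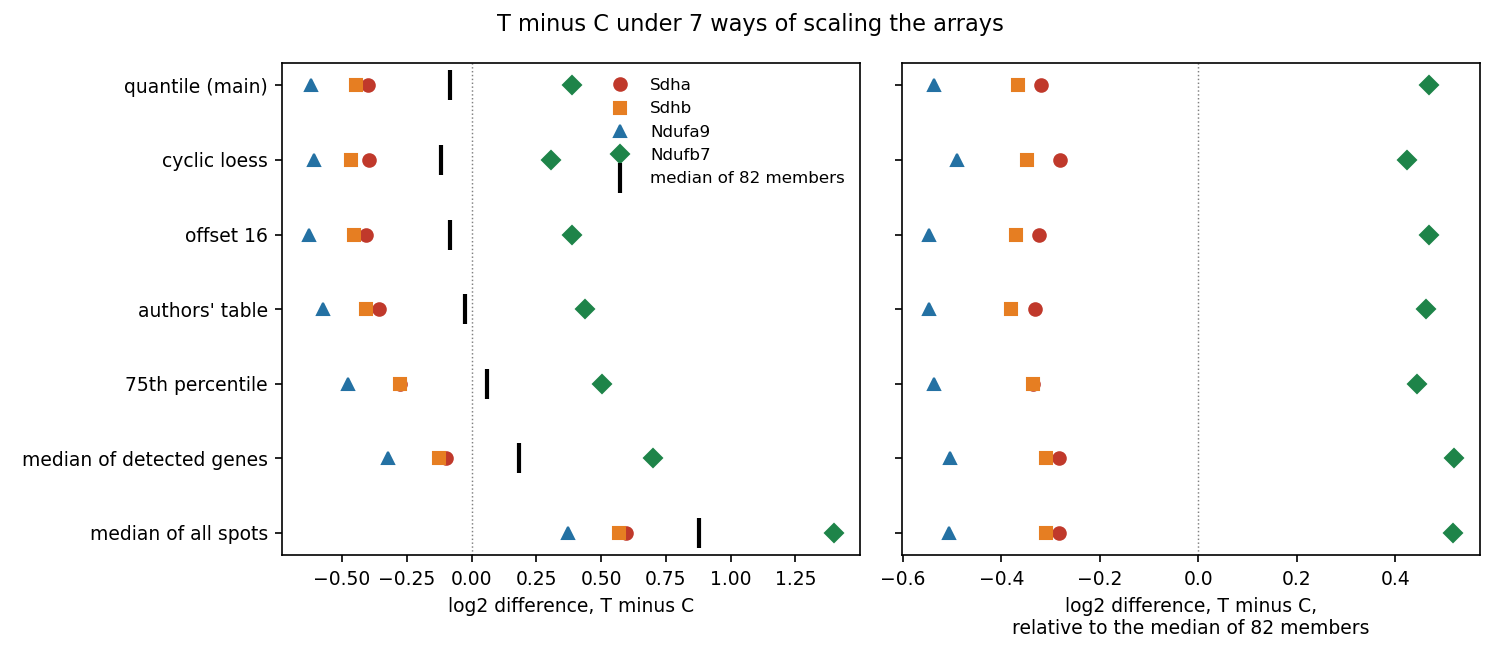
T minus C log2 difference (axis) of named members under 7 scalings of the arrays; the left panel gives the difference itself and the right panel the same relative to the median of the 82 members above background. On the left the sign turns with median scaling, where Sdha is at 0.60 and Ndufa9 at 0.37; on the right Ndufa9 stays between -0.55 and -0.49 and Ndufb7 between 0.42 and 0.52.

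The comparison of G with T asks whether livers given Gas1 after DEN differ from livers given the empty plasmid after DEN, and it shares the T mice with the comparison above. No member was called by limma, while 29 symbols (0.132%) were called in all. The methods' t-test called 0 members and 5 of all symbols after Benjamini-Hochberg adjustment, and 7 higher members before it. At an unadjusted p under 0.05, 10 members (11.2%) were higher in G and 0 lower, against 4.18% and 6.62% of all symbols, and 10 of the 82 members above background (12.2%) against 6.73% of such genes. The higher count was 12 with cyclic loess, 6 with the authors' table and 4 with normexp offset 16. With median scaling, 75th-percentile scaling and median scaling on genes above background it was 0. Sdhb, already given, was the 1 member fully higher, against 1.1% of all symbols and 1.57% of those above background, and 0 members were fully lower against 2%.

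Sdhb had the smallest p of the members in G minus T (0.27, SE 0.08, unadjusted p = 0.00467, adjusted p = 0.213), followed by Sdha (0.24, SE 0.08, unadjusted p = 0.0106, adjusted p = 0.286). Uqcrc2 was at 0.24 (SE 0.08, adjusted p = 0.297), Ndufs1 at 0.24 (adjusted p = 0.413) and Ndufa9 at 0.22 (SE 0.11, adjusted p = 0.528). The G minus T medians were 0.06, 0.12, 0.12, 0.12 and 0.11 for complexes I to V and 0.09 for all members, but with median scaling and 75th-percentile scaling the last was -0.07 and -0.09 and all 5 complex medians were negative. Without G6 the medians of complexes I, IV and V were 0.02, 0.08 and 0.06. The 5 assembly factors and relatives had a median of -0.05.

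**Figure D4:**
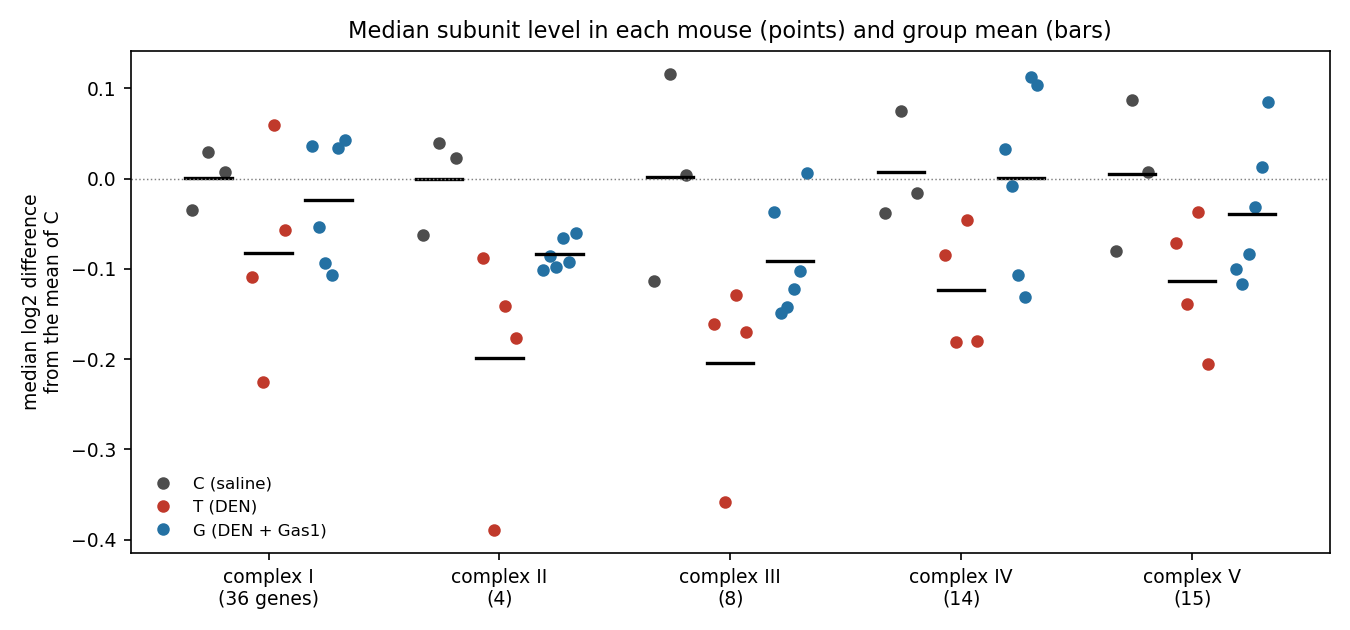
Median log2 difference from the mean of group C (vertical axis) over the members of each complex, in each of the 13 mice; points are mice, bars are group means, and complexes IV and V are shown for the 14 and 15 members above background on all arrays. Complexes II, III and IV as drawn separate T from C with no overlap in this scaling, T2 lies lowest of all mice in these 3, and the sign of the family shift turns with median scaling.

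Against C, group G held no called member by limma (94 symbols, 0.427%, were called in all) or by the methods' t-test (5 symbols in all). At an unadjusted p under 0.05, 6 members were lower and 1 higher, against 7.16% and 6.1% of all symbols. The lowest of the called trio was Ndufa9 at -0.40 (SE 0.12, adjusted p = 0.188), with Sdhb at -0.18 (adjusted p = 0.386) and Sdha at -0.17 (adjusted p = 0.441). For the 23 members lower in T at an unadjusted p under 0.05 the G mean lay between those of T and C in 23 of 23 and nearer to C in 12. They were chosen on their T values, which all these differences share, so this is a description.

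One mouse of G expressed heart and muscle forms of complex IV. Cox6a2, the muscle form of subunit VIa, was at 12.46 in G6 and between 5.94 and 6.30 in the other 12 mice. Cox8b, the muscle form of subunit VIII, was at 11.72 in G6 and between 6.09 and 6.45 elsewhere. Cox7a1, the muscle form of subunit VIIa, was at 11.73 against 7.28 to 8.06. All 3 stood far outside the range of every other mouse. Of the common forms of complex IV in G6, Cox6a1 (15.40) and Cox4i1 (14.52) lay within the range of the other mice, while Cox6b1 (10.78 against at most 10.69) and Cox6c (13.19 against at most 13.15) were slightly above it. Over the 82 members above background on all arrays, G6 was the highest mouse in 21, and the next, G1, in 10.

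Over whole groups the muscle forms were not called: G minus T was 1.13 (adjusted p = 0.746) for Cox6a2, 1.05 (adjusted p = 0.601) for Cox7a1 and 0.90 (adjusted p = 0.774) for Cox8b. Cox6a2 was not well above background in T or C on any array, and the G mean was at least 2.19-fold higher than T and at least 2.17-fold higher than C. Cox8b was at least 1.88-fold higher than C by the same rule. Without G6 the G means were 6.18 ± 0.13, 7.79 ± 0.25 and 6.20 ± 0.12 (n = 5) for Cox6a2, Cox7a1 and Cox8b, so these group differences rest on G6.

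Markers of striated muscle moved with them. In G6, 9 of 10 skeletal muscle markers were above background, all but Mylpf at 6.05, against 7 of 10 in G4 and at most 4 in the others, and the summed intensity of the list was 53455 against 509 to 766 in the other mice. All 7 cardiac and slow muscle markers were above background in G6 and also in G4, with a sum of 7014 in G6 and 473 to 660 in the others, of which G4 was the highest. The level, not the detection, set G6 apart. The 6 adipocyte markers had a summed intensity of 1829 in G6 against 383 to 628 elsewhere, with 3 of 6 above background, Cidea at 9.90 and Cfd at 9.18, while Adipoq was at 6.69. Acta1, skeletal actin, was at 13.46, Ckm, muscle creatine kinase, at 10.85, Myh4, a fast myosin heavy chain, at 12.51, and Myl3, a slow and ventricular light chain, at 12.11. The part of muscle or fat tissue in the Cox values of G6 was not tested, nor was its part in any other value of this mouse.

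**Figure D5:**
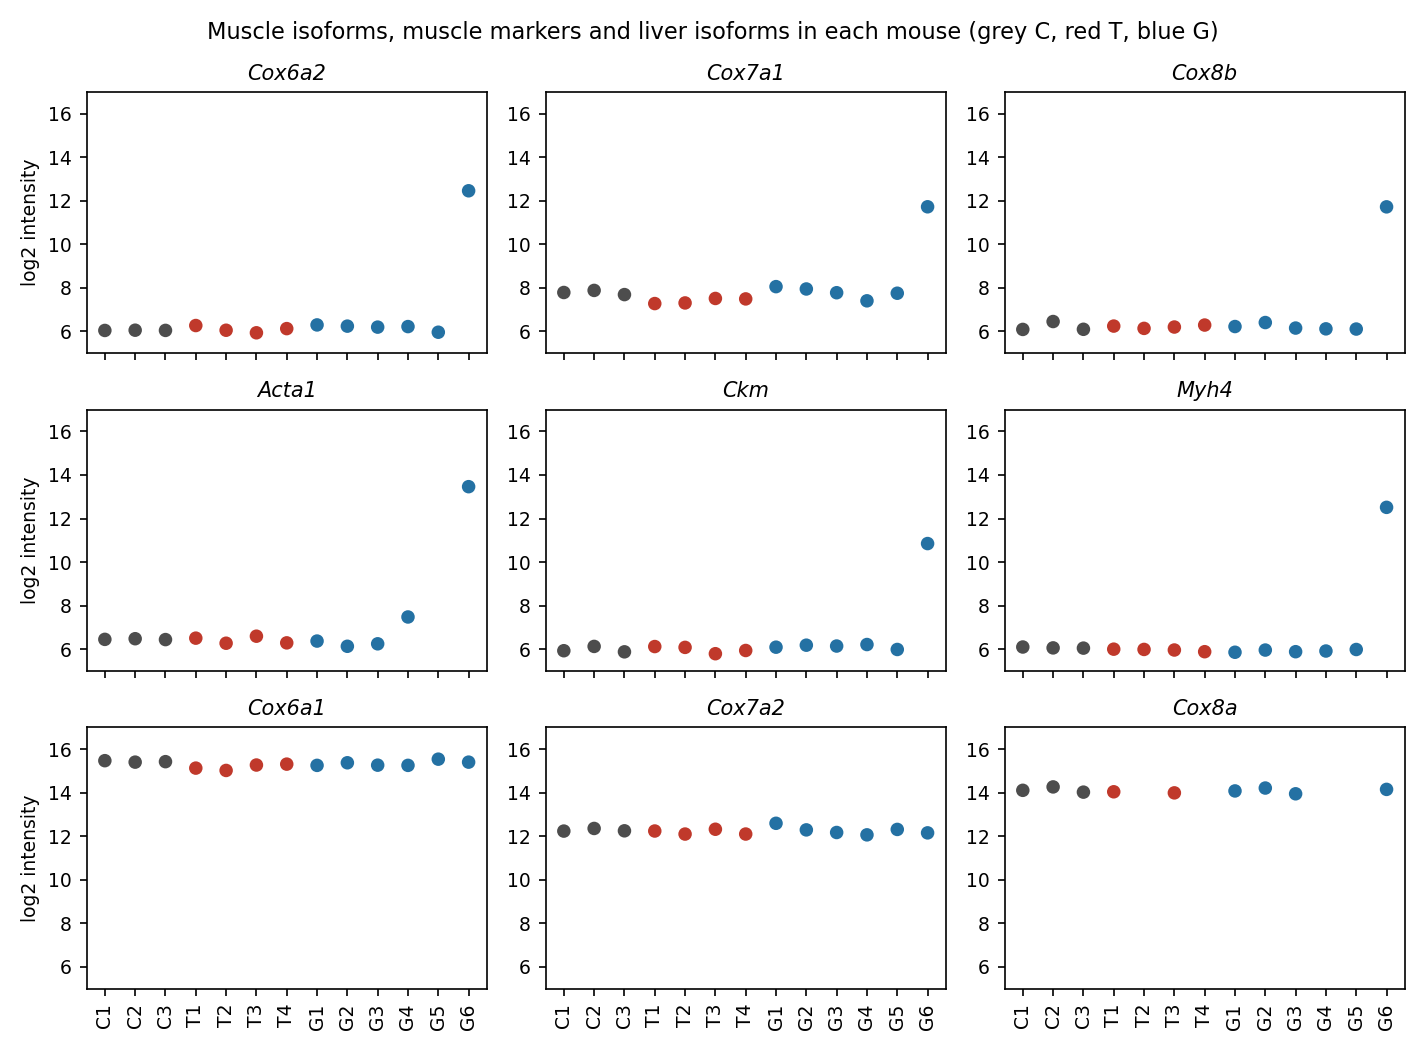
Log2 level (vertical axis) in each of the 13 mice of the muscle forms Cox6a2, Cox7a1 and Cox8b, the muscle markers Acta1, Ckm and Myh4, and the common forms Cox6a1, Cox7a2 and Cox8a; each point is 1 mouse. G6 stands apart in the first 6 genes, with Cox6a2 at 12.46 against at most 6.30 elsewhere, and not in the common forms.

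Genes that feed or serve the chain were read from lists of pathway genes. Of 18 TCA cycle genes, 3 fell from C to T and none rose: Cs, citrate synthase, by 0.94 on the log2 scale (adjusted p = 0.0430), Dlat, a pyruvate dehydrogenase subunit, by 0.76 (adjusted p = 0.0199), and Suclg1, a succinyl-CoA ligase subunit that supplies the substrate of complex II, by 0.64 (adjusted p = 0.0481). Of all symbols 1.2% fell and of genes above background 2.5%. The list had 14 negative and a median of -0.23, which turned to 0.65 under median scaling. Over the 7 scalings Dlat was called in 4, Cs in 3 and Suclg1 in 2, and with cyclic loess the adjusted p was 0.0579, 0.0625 and 0.0816. Among 7 electron carriers and related genes 1 fell, Etfdh, which brings electrons from fatty acid oxidation to ubiquinone (-0.87, SE 0.14, adjusted p = 0.0144), while Cyc1, the cytochrome c1 of complex III, was at -0.32 (adjusted p = 0.137) and Cycs, cytochrome c, at -0.10. Among 27 other assembly genes 1 fell, Surf1, an assembly factor of complex IV (-0.49, SE 0.11, adjusted p = 0.0400), with a list median of -0.06. Etfdh was called in 5 of the 7 scalings and Surf1 in 3. Median scaling turned the sign of Cs, Suclg1, Etfdh and Surf1 (to 0.05, 0.34, 0.13 and 0.43). Relative to the median of the genes above background, Cs, Dlat, Suclg1, Etfdh and Surf1 were negative in all 7 scalings, and the one nearest to 0 at any scaling was Surf1 at -0.22.

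Regulators of mitochondrial biogenesis were mixed. Of 14, 7 were positive and 7 negative in T minus C with a median of 0.02. Nrip1, a corepressor of oxidative genes, fell (-0.39, adjusted p = 0.0229), and was called in 4 of 7 scalings (not with cyclic loess, the 75th percentile or median scaling, where the adjusted p was 0.0863, 0.0582 and 0.708). The coactivator Ppargc1a was at 0.11, its partner Esrra at 0.36 (adjusted p = 0.102) and Tfam, which maintains mitochondrial DNA, at -0.21 (adjusted p = 0.165). Over the 7 scalings Esrra was called higher in 2, Tfam lower in 1 and Ppargc1a in 0. Relative to the median of the genes above background, Esrra was at 0.33 to 0.54 and Tfam at -0.40 to -0.17. The 11 transcripts named after mitochondrial genome genes were not called in the main scaling, with a range from -0.70 for COX1 to 0.63 for ND3. Their median was -0.19, and its sign turned to 0.12 with the authors' table, 0.06 with 75th-percentile scaling, 0.23 with median scaling on genes above background and 0.93 with median scaling. The probes of 5 of these 11 are mapped to chromosome 1 and of 6 to the mitochondrial genome. Of the 148 genes on all lists, limma and the methods' t-test called 0 in G against T and 0 in G against C, with 23 and 39 at an unadjusted p under 0.05, where 10.8% and 13.3% of all symbols passed that rule.

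Markers of the cells in the tissue were read beside the subunits. The 10 hepatocyte markers had a median T minus C of 0.05, with 5 positive and 5 negative, and 1 call: Ttr, transthyretin, fell by 50.1% (adjusted p = 0.00425), with a log2 difference that turned to 0.18 under median scaling. Of 6 macrophage markers 4 were positive and 2 negative, from -0.25 for Cd68 to 0.83 for Marco, with a median of 0.18. The 1 call by limma was Emr1, the F4/80 antigen (0.31, adjusted p = 0.0267). The sign of Emr1 turned to -0.37 with median scaling on genes above background. Of 6 erythroid markers limma called 0, with 4 higher at an unadjusted p under 0.05, and 4 lay fully higher in T. Of all symbols, 10.6% were higher by that rule and 10.3% lay fully higher. The 6 had a median of 0.82, their summed intensity was 8210 to 14635 in C and 17660 to 23773 in T, and it was 41579 in G6 against 10150 to 25784 in the other G mice. All 7 stellate cell and fibroblast markers were negative, with a median of -0.30 that turned to 0.14 under median scaling, and none was called. The part of blood, macrophages or other cells in the subunit differences was not tested.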

How the data were processed

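The set of subunits, the gene lists and the tests were chosen with earlier results of these data known. The authors hybridised liver RNA to one-colour Agilent 8x60K arrays and read them with Agilent Feature Extraction. The deposited scanner files hold linear spot intensities (mean signal and background) for each array, and the deposited series table holds log2 values, normexp-corrected and quantile-normalized by the authors according to the study's methods. Here the intensities were corrected with normexp (offset 50), converted to log2 and quantile-normalized over 59305 spots without controls, with outlier-flagged spots left out. The result differed from the deposited log2 values by a median of 0.00268 in absolute value. Some genes differed more: T minus C was -1.00 here and -0.61 with the deposited values for Ttr, and -0.94 and -0.88 for Cs. Spots were averaged per probe, and probes were centred and averaged per symbol (29522 probes, 22032 symbols). Arrays of 1 RNA code were averaged, since the SD of the difference between the C pair was 0.146 against at least 0.291 for other C pairs. Groups were taken from the sample records.

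Groups were compared with limma 3.58.1 (R 4.3.3, the data.table package, 1.17.8), with 1 mean per group, moderated variances and Benjamini-Hochberg adjustment over all symbols (called: adjusted p under 0.05). Tests are two-sided. The sources do not state that each RNA code is a separate animal, so p-values measure the spread between these samples, and the number of arrays limits the precision. The procedure was tested on simulated data. "At least" folds set the brighter group's mean against, per array, the higher of the dim probe's own level and the lowest level well above background. Genes named by rule are Ndufa9, Sdha, called members, the highest and lowest member of each complex in each comparison, tissue forms, called list genes, and Cyc1, Cycs, Ppargc1a, Esrra and Tfam; others are said to be chosen after their values were seen, or stand as examples of a count. The alternatives were other scalings, filters, probe rules, slide and replicate terms, tests and leaving out each mouse. Upstream sequences are from RefSeq (GRCm38.p6), in which 74 of 89 members were found. Figures were drawn with matplotlib 3.10.9 and pandas 2.3.3 (Python 3.11.15).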

Additional observations from a re-analysis of the deposited data

Results flagged for a closer look

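Of 78 groups of 4 to 6 mice checked over 33 named genes and the complex medians, 6 held a mouse whose gap to its neighbour was large for the range of its group, and chance marks about 1 in 20 groups. In G6 the muscle forms Cox6a2, Cox7a1 and Cox8b were at 12.46, 11.73 and 11.72, while the nearest G mouse was at 6.30, 8.06 and 6.41. G6 is also the mouse with summed skeletal muscle markers of 53455 against at most 766 elsewhere, and without it the G means of Cox6a2 and Cox8b were 6.18 and 6.20. Cox7b, a complex IV subunit, was at 14.39 in G5, above the next G mouse at 13.35. In T2, Sdhb was at 11.77, below the next T mouse at 12.05, and without T2 the T minus C difference of Sdhb was -0.37 and the count of called members was 0. Cox6b1 was at 10.5 in T2, above the next T mouse at 10.39.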

How the results depend on the processing

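Over 18 other settings besides leaving out mice, 0 members were called in G against T and 0 in G against C. Another 3 were chosen after seeing the data. Of these, median scaling on genes above background called 0 members in G against T. In G against C it called 6 (2 higher, 4 lower), with 11743 of all 22032 symbols. The other added settings keep C3 as the only C mouse, so no count is given for them. In T against C, 3 members were called as reported, with 523 of all symbols. With median scaling the count was 17 (all higher), where 2876 of all symbols were called. It was 0 with 75th-percentile scaling (57 of all symbols) and 1 with the authors' table (565). The 15 arrays as separate samples gave 13 (1949 of all symbols). Slide as a term with RNA code as a random block gave 6 (814 of all symbols). Slide 1 alone gave 0 (46 of all symbols), slide 2 alone 0 (17) and trended robust variances 1 (500). The equal-variance t-test called 0 members and 0 of all symbols after adjustment (20 members lower and 2 higher before it). The added median scaling on genes above background gave 10 (7 higher, 3 lower), where 12922 of all symbols were called. With the replicate block the count was 11, with 1606 of all symbols called. The replicate numbers do not pair the mice: correlations of same-numbered deviations lay between -0.312 and 0.265, and no label ties them.

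Signs are listed only for named genes called in the main scaling or in the other one. With median scaling they turned in T against C for Atp5g3 (1.16), Cox4i1 (1.09), Ndufa9 (0.37), Sdha (0.60) and Sdhb (0.57). With median scaling on genes above background they turned for Cox4i2 (-0.58) and for Cox8c (-0.68, and -0.66 in G against C). More members turned than are listed. At an unadjusted p under 0.05 by limma, 66 members were higher in T and 0 lower with median scaling, against 2 and 23 in the main scaling. Median scaling moved the T minus C median to 0.86 for all members and to 0.91, 0.77, 0.80, 0.69 and 0.92 for complexes I to V, the G minus T medians to -0.069 and -0.091, -0.022, -0.056, -0.032 and -0.069, and the G minus C medians to 0.80 and 0.83, 0.75, 0.79, 0.80 and 0.79. Median scaling on genes above background gave 0.15 for all members and 0.21, 0.077, 0.11 and 0.20 for complexes I, II, III and V in T minus C, 0.034 and 0.035 for complexes III and V in G minus T, and 0.20 and 0.22, 0.14, 0.18, 0.19 and 0.19 in G minus C. Scaling to the 75th percentile gave 0.033 for all members and 0.082, -0.074, -0.068 and 0.059 for complexes I, II, III and V in T minus C, and -0.093 and -0.12, -0.061, -0.081, -0.038 and -0.082 in G minus T. With C3 as the only C mouse and median scaling, T minus C was 0.053 for all members and 0.030, -0.12, -0.036 and 0.0019 for complexes I, II, III and V, and G minus T was -0.071 and -0.091, -0.022, -0.056, -0.032 and -0.085.

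On slide 1 alone T minus C was -0.17 for all members and -0.19, -0.34, -0.31 and -0.17 for complexes I, II, III and V, and G minus T of complex II was 0.21. On slide 2 alone T minus C of complex III was -0.080 and G minus T of complex V was 0.0086. Complex IV in T minus C was -0.11 with cyclic loess and -0.10 with probes above background on all 15 arrays. With a plain mean of probes complex II was at -0.070 in T minus C and -0.033 in G minus T. The cause of these shifts was not tested. The 3 moved scalings also moved the genes above background, but not always in the direction of the members. The T minus C median of those genes was 0.01 in the main scaling, 0.65 with median scaling and 0.09 with 75th-percentile scaling. With median scaling on genes above background it fell to -0.05, while the T minus C median of all members rose.

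Leaving out each mouse in turn, called members in T against C ranged from 0 to 6 (6 without T1), with medians from -0.12 to -0.04 for all members and, for complexes I to V, -0.12 to -0.04, -0.27 to -0.16, -0.25 to -0.14, -0.099 to -0.0044 and -0.13 to -0.05. In G against T, 0 members were called and the ranges were 0.04 to 0.13, and 0.02 to 0.11, 0.05 to 0.16, 0.08 to 0.15, 0.08 to 0.14 and 0.06 to 0.14. In G against C, 0 were called and the ranges were -0.05 to 0.01, and -0.04 to 0.01, -0.14 to -0.07, -0.10 to -0.02, -0.01 to 0.06 and -0.07 to 0.01. The 5 members below background on some arrays and the 2 below it on all have only bounds where they are dim.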
